A study of Mus musculus with 4 samples.

Results

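The genes described here are 35 extracellular matrix genes, taken by symbol from the 53647 genes listed in the deposited count matrices. They fall into 23 genes of the fibrillar and interstitial matrix and 12 genes of the basement membrane, and each symbol matched 1 gene. All animals were aged C57BL/6J mice with a spinal cord injury, and the injured segment was taken 28 days later from animals given either a control IgG or an anti-CD8 antibody. Each group held 2 libraries of single cells, made after enzymatic dissociation and removal of myelin with beads, and the series calls the libraries biological replicates without saying how many mice went into each. The p-values below therefore measure the spread between these libraries, and an exact two-sided permutation test of 2 against 2 cannot go below p = 0.33.

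Fibrillar collagens are triple helices that assemble into banded fibres, cross-linked by lysyl oxidases and dressed by small proteoglycans such as decorin, lumican and biglycan. Basement membranes are thin sheets in which a laminin network and a type IV collagen network are joined by nidogens and perlecan, and in the spinal cord they surround vessels and border the meninges. After injury, fibroblasts and perivascular cells lay down both kinds of matrix in a fibrotic scar at the lesion core.

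Sequencing gave 152457679 to 170539226 UMIs per library, and 27695 cells in 30 clusters were kept. Any pair of libraries shared 7 to 23 barcodes. Cell classes were named from marker genes. Summed mural markers in the mural class stood at 33430 and 31260 against 32740 and 35490 CPM, with IgG first here and throughout. CPM are each library's counts scaled to 1000000 UMIs of that class. They carry no TMM scaling, edgeR's factor between libraries, whereas the edgeR fold changes do. Whether the groups overlapped was read on these CPM throughout. Both anti-CD8 libraries had lower median depth in microglia, ependymal cells, Spp1-high myeloid cells and macrophages, and also over all cells. Medians were 31451 and 31393.5 against 26000 and 27607 UMIs in Spp1-high myeloid cells. In macrophages they were 19766.5 and 18287 against 15117 and 16261 UMIs. The part of depth in the results was not tested.

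Where the UMIs of each gene lay differed widely between members, and these shares are a description with no test. Col1a1, a chain of type I collagen, had 79.6% (61.6% to 96.3%) of its UMIs in the fibroblast-like cells, as the mean and range over the 4 libraries. Lum, which encodes lumican, had 88.2% there, and Col3a1, the chain of type III collagen, 61.6%. That class held only 46 cells (5 and 11 against 16 and 14 cells), so it was not tested. Its Col1a1 level was 403 and 1710.2 against 1465 and 812 CPM, and its Dcn level was 4555 and 27654 against 10256 and 11458 CPM. The first IgG library, with 5 such cells, had the lowest values of both. Pan-myeloid markers in this class summed to 7019 and 239 against 1792 and 6575 CPM, and their part in these levels was not tested.

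Other members lay mostly outside fibroblasts. Col5a2, a chain of the fibril-regulating type V collagen, had 63.5% (50.2% to 71.7%) of its UMIs in ependymal cells, and Col12a1, a fibril-associated collagen, had 72.7% (62.6% to 81.6%). Myeloid cells held most UMIs of Sparc, a collagen-binding matricellular protein (64.1% in microglia), and of Lox, the collagen cross-linking enzyme (76.8% in microglia). Postn, which encodes periostin, was divided between the Spp1-high myeloid class (53.2%) and microglia (44.4%). Clusters 11 and 13, counted as microglia, had Postn at 82.6 and 54.0 CPM. Of all marker lists, the Spp1-high list gave each of these clusters its highest score. Endothelial cells held 57.5% (54.5% to 59.7%) of the UMIs of Col4a1 and 68.1% of those of Lama4, a vascular laminin chain.

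**Figure D1:**
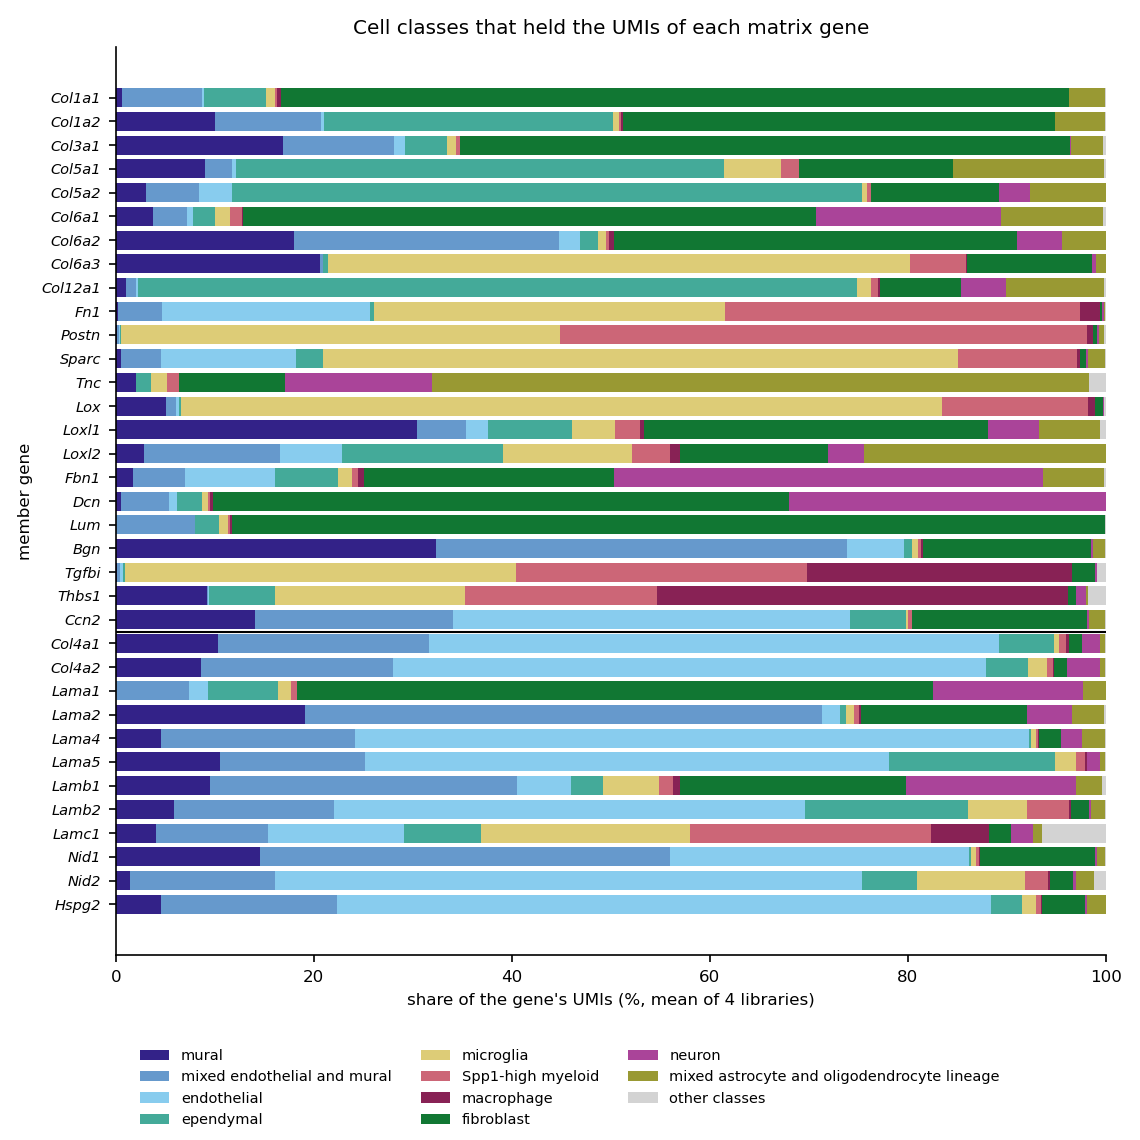
Share of each gene's UMIs found in each cell class (percent, mean over the 4 libraries), with 1 stacked bar per gene. Col1a1, Col3a1 and Lum lie mostly in fibroblast-like cells, Col5a2 and Col12a1 in ependymal cells, and Col4a1, Col4a2 and Lama4 in endothelial cells.

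Col1a2, the partner chain of Col1a1, was divided between fibroblast-like cells (43.6% of its UMIs) and ependymal cells (29.2%), while Col3a1 had 4.26% of its UMIs in ependymal cells. The 250 bases before the annotated starts of these genes are printed to show a pair of interstitial collagens that differ in this way. The sequences are RefSeq windows on GRCm38.p6, whereas the counts were made on GRCm39, and capitals mark matches to TATAAA (the TATA box), CCAAT (the CCAAT box) or GGGCGG (the GC box) on either strand. The first is chr6:4505368-4505617 and the second chr1:45311288-45311537, both on the plus strand.
Col1a2: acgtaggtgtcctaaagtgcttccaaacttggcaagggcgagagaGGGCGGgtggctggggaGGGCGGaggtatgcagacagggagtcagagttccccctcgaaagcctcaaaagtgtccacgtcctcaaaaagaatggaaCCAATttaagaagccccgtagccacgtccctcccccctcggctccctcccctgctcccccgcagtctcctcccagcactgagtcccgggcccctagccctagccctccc
Col3a1: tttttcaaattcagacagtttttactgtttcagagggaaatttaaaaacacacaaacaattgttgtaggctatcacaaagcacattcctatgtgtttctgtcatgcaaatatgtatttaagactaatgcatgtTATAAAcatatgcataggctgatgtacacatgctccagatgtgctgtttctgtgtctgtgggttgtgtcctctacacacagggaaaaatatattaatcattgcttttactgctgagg
The Col1a2 window had GGGCGG at 205 and 188 bases and CCAAT at 109 bases before the start, and the Col3a1 window had TATAAA at 117 bases before it. Of 32851 windows of the same length, 12.4% held TATAAA, 33.8% CCAAT and 32.7% GGGCGG on either strand. Windows were found for 20 of the 35 members, 23 windows in all, of which 4, 5 and 14 held these motifs. Such matches describe the letters only. Col4a1 (minus strand) and Col4a2 (plus strand) lie head to head on chromosome 8 of GRCm38.p6. Their annotated starts, at 11312826 and 11312805, are 21 bases apart, and the annotated transcripts overlap there.

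**Figure D2:**
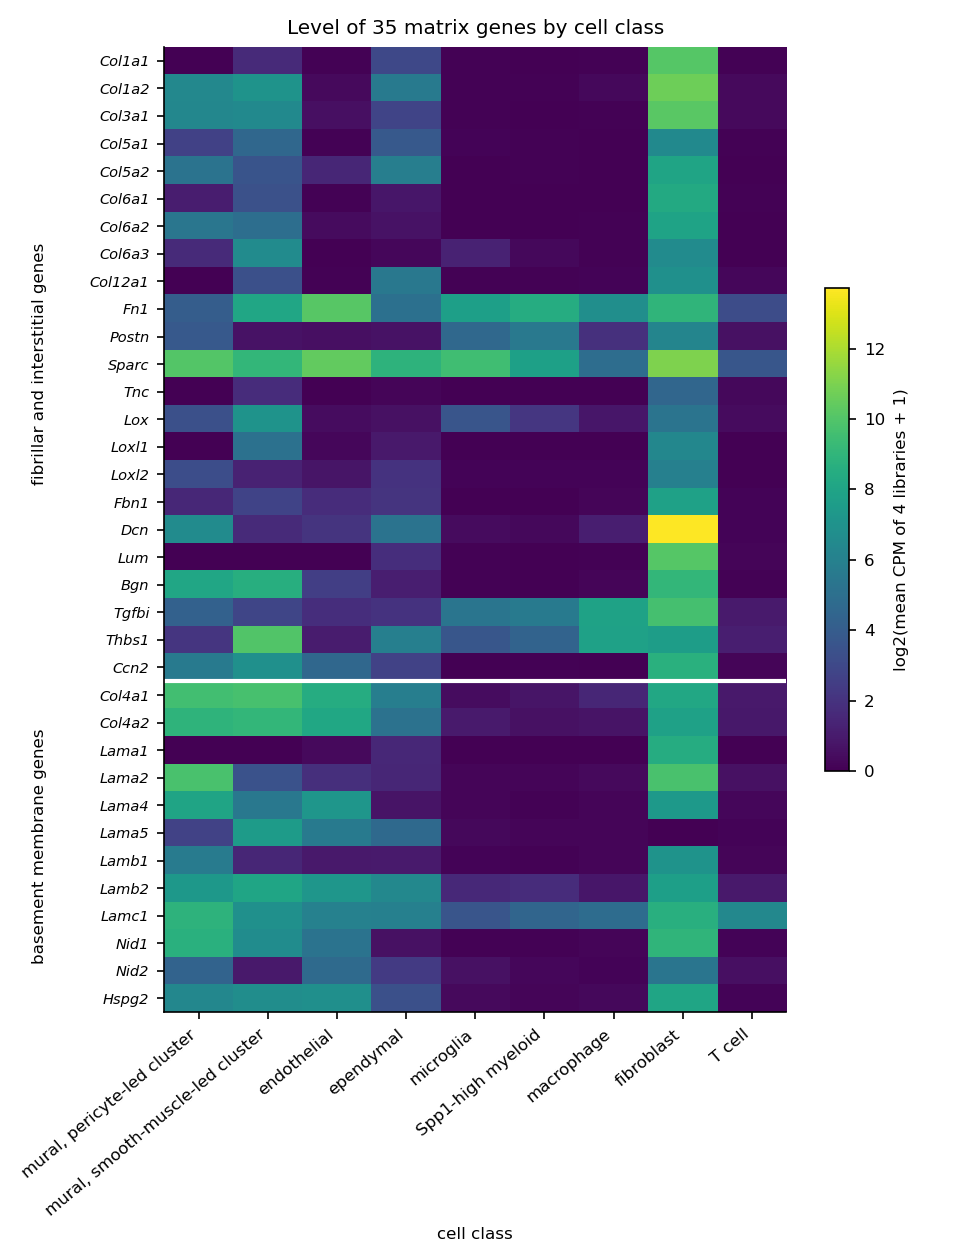
Heat map of log2(mean CPM + 1) over the 4 libraries for the 35 genes (rows) in 9 cell classes (columns). Col1a1, Col3a1, Dcn and Lum stand out in fibroblast-like cells, and Col4a1 and Col4a2 are visible in mural and endothelial cells.

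Between the antibody groups, no member was called in any of the 6 classes tested. The members with the smallest p were Ccn2, lower with anti-CD8 in mural cells, Lama4, lower in endothelial cells, Tgfbi, higher in microglia, Lamc1, higher in the Spp1-high class, and Thbs1, higher in macrophages. In ependymal cells it was Dcn, whose UMIs lay in a few cells of the IgG libraries. The values of each follow by class.

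Mural cells, the pericytes and smooth muscle cells of the vessel wall, were 54 and 60 against 65 and 49 cells. Of the 24 members tested with edgeR's quasi-likelihood test, none was called at adjusted p 0.05, where 0% of the 8049 genes tested were called. At an unadjusted p under 0.05 stood 1 member and 312 genes, and DESeq2 called 1 gene, no member. The other 11 held 0 to 28 UMIs over the 4 libraries and were not tested. The log2 fold changes of anti-CD8 over IgG were above 0 for 12 members and below 0 for 12, with a median of 0.01 against 0.00 over all genes.

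None of the 10 basement membrane genes tested in mural cells stood at an unadjusted p under 0.05. Col4a1, which with Col4a2 forms the main type IV collagen of vessels, stood at 774 and 665 against 841 and 925 CPM (719.5 ± 77.1 against 883 ± 59.8 CPM, SD, n = 2). Both anti-CD8 libraries were above both IgG libraries, and the interval included 0 (95% interval of the log2 fold change -0.19 to 0.70). Col4a2 stood at 505 and 469 against 524 and 542 CPM. The groups did not overlap for that gene either. Lama2, the laminin chain of pericyte and muscle basement membranes, was 233 and 364 against 323 and 459 CPM. Lamc1, a gamma chain shared by most laminins, was 233 and 242 against 231 and 266 CPM. Lamb2, a laminin beta chain of vessels, was 223 and 219 against 219.5 and 226 CPM. The groups overlapped for these 3 laminin genes.

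Among the interstitial genes of mural cells, Ccn2 had the smallest p. It encodes a matricellular protein induced by TGF-beta and by stretch, and it stood at 115 and 129.9 against 43.0 and 93.3 CPM (122 ± 10.7 against 68.2 ± 35.6 CPM, SD, n = 2). The groups did not overlap, with anti-CD8 lower, and the difference was not called (log2 fold change -0.92, SE 0.32, adjusted p = 1.00 in edgeR). Its log2 fold change was -0.46 without the first anti-CD8 library and -1.51 without the second, the ends of its range over the alternatives. In the smooth-muscle-led cluster alone the values were 159 and 179.9 against 54.1 and 73.7 CPM, without overlap, and in the pericyte-led cluster 24.1 and 27.9 against 25.7 and 116 CPM, with the second anti-CD8 library highest. Endothelial markers in the mural class summed to 401 and 735 against 468 and 1338 CPM. Pan-myeloid markers there summed to 2715 and 4522 against 4182 and 2208 CPM. Spp1-high markers summed to 1893 and 3470 against 2405 and 1741 CPM. The part of these markers in the mural results was not tested.

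Col3a1 stood at 123 and 82.6 against 77.5 and 63.5 CPM in mural cells, with both anti-CD8 libraries lower (log2 fold change -0.57, SE 0.28, adjusted p = 1.00 in edgeR), and its log2 fold change was -0.22 without the first IgG library. Dcn, the decorin gene, stood at 9.44 and 41.3 against 67.4 and 33.8 CPM, and its groups overlapped (log2 fold change 1.00, SE 0.56, adjusted p = 1.00 in edgeR). With the mixed endothelial and mural cluster counted as mural, its log2 fold change was -0.51, and leaving out 1 library moved it from 0.34 (without the first library of either group) to 2.37 (without the second IgG library). Fibroblast markers in the mural class summed to 1045 and 499.9 against 621 and 645 CPM with 7 of 14 at 0, among them Pdgfra and Dpt, and their part was not tested. Sparc was 768 and 649.7 against 679 and 820.1 CPM. Thbs1, which encodes thrombospondin 1, an activator of latent TGF-beta, was 772 and 506 against 614 and 609.6 CPM. Bgn, the biglycan gene, was 444 and 266 against 307 and 353 CPM, and the groups overlapped for all 3. In mural cells 4 members (Col6a2, Lox, Col4a1 and Col4a2) had both anti-CD8 libraries above both IgG libraries and 2 (Col3a1 and Ccn2) below. Over all genes tested these shares were 17.8% and 13.4%.

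The 2 mural clusters had different members in front, which describes the clusters and is no test. Pericyte-led cells (129 cells) had Lama2 at 708 and 1065 against 824 and 977 CPM, with a UMI in 96.9% of cells. In T cells, taken as the background for Lama2 and Thbs1, that share was 0.388%. Median depth by library was 6196 to 7320 UMIs in T cells and 5649 to 5783 in pericyte-led cells. Nid1, which encodes the laminin-to-collagen linker nidogen 1, was 424 and 484 against 408 and 379 CPM in pericyte-led cells. Smooth-muscle-led cells (99 cells) had Thbs1 at 1147 and 749 against 1007 and 1128 CPM, with a UMI in 85.9% of cells against 0.452% of T cells. Their median depth was 12270 to 17069 UMIs by library, above that of the T cells, so these 2 shares were not matched for depth. The pericyte-led cells were shallow, at 0.302 of their libraries' median depth. A further 283 cells of mixed endothelial and mural character were left out of both classes, and they held 52.2% of the UMIs of Lama2.

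**Figure D3:**
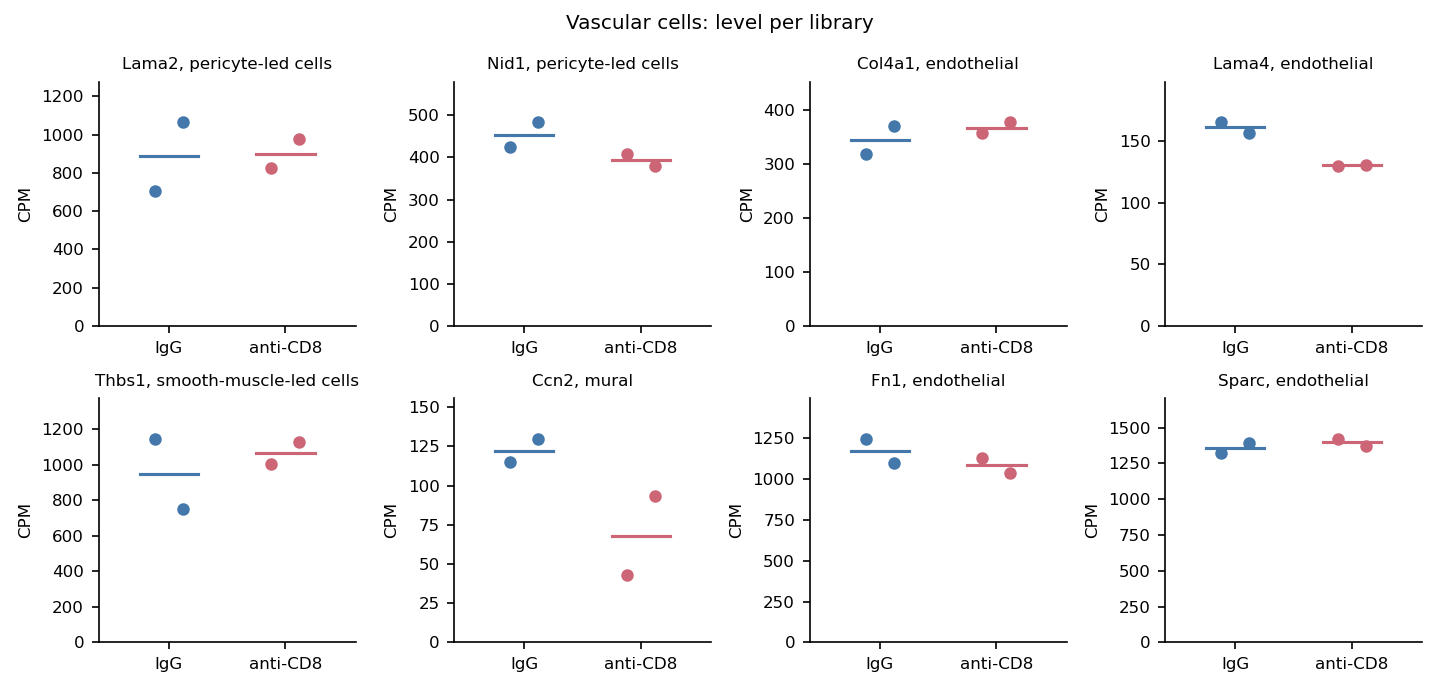
CPM in each library (points) and group means (lines) for 8 genes in the vascular classes, IgG beside anti-CD8. Ccn2 in mural cells and Lama4 in endothelial cells have both anti-CD8 points below both IgG points, while Sparc and Fn1 in endothelial cells overlap.

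Endothelial cells, which line the vessels, were 365 and 419 against 616 and 558 cells. Of these, 30 and 69 against 44 and 139 cells lay in a very shallow cluster, at 0.062 of its libraries' median depth. None of the 18 members tested was called by edgeR, against 0% of 14023 genes. At an unadjusted p under 0.05 stood 1 member and 646 genes, and DESeq2 called 5 genes, no member. The other 17 held 0 to 34 UMIs over the 4 libraries and were not tested. The median log2 fold change of the members was -0.10, with 6 above 0 and 12 below, against 0.00 over all genes.

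Lama4, the alpha chain of the laminin found beneath most endothelium, had the smallest p in endothelial cells. It stood at 165 and 157 against 130.0 and 130.2 CPM (161 ± 5.99 against 130.1 ± 0.106 CPM, SD, n = 2), with both anti-CD8 libraries lower. The difference was not called (log2 fold change -0.31, SE 0.08, adjusted p = 1.00 in edgeR), and its log2 fold change ran from -0.36 to -0.27 over the alternatives. Nid1 stood at 39.3 and 38.3 against 35.3 and 33.1 CPM, again without overlap (log2 fold change -0.19, SE 0.10, adjusted p = 1.00 in edgeR). Hspg2, which encodes perlecan, was 122 and 115 against 110.2 and 106 CPM. Its anti-CD8 libraries were also the lower ones, with a 95% interval of the log2 fold change -0.33 to 0.05. Mural markers in endothelial cells summed to 639.9 and 638 against 454 and 707 CPM, and their part was not tested.

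Type IV collagen in endothelial cells lay the other way. Col4a2 stood at 253 and 286 against 296 and 302 CPM, with both anti-CD8 libraries above both IgG libraries (95% interval of the log2 fold change -0.05 to 0.33). Col4a1 was 318 and 371 against 357 and 377 CPM, and its groups overlapped. Lamb2 was 149 and 147 against 135 and 147 CPM. Lamc1 was 61.2 and 68.9 against 68.0 and 60.9 CPM, and both laminin chains overlapped between groups.

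Of the interstitial genes of endothelial cells, Sparc stood at 1322 and 1391 against 1422 and 1372 CPM (95% interval of the log2 fold change -0.14 to 0.21). Fn1, the fibronectin gene, stood at 1247 and 1098 against 1129 and 1039.9 CPM (95% interval of the log2 fold change -0.33 to 0.09). Both overlapped between groups. Col5a2 was scarce, at 13 and 22 against 15 and 6 UMIs, and was not called (log2 fold change -1.05, SE 0.47, adjusted p = 1.00 in edgeR). Its log2 fold change was -0.45 under the stricter cell filter and from -1.64 to -0.69 with 1 library left out, the smallest sizes being without the second library of either group. In endothelial cells 1 member (Col4a2) had both anti-CD8 libraries higher and 6 (Col5a2, Ccn2, Lama4, Lama5, Nid1 and Hspg2) had both lower. Over all genes tested the shares were 17.8% and 15.1%.

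Whether the antibody difference itself differed between mural and endothelial cells was tested with an interaction term. None of the 30 members tested passed, against 0% of 14030 genes, and 500 genes stood at an unadjusted p under 0.05. The smallest p belonged to Thbs1 (mural minus endothelial log2 fold change -1.93, SE 0.58, adjusted p = 1.00 in edgeR). Ccn2 differed by -0.76 and Lox by 1.98 on the log2 scale, each with adjusted p = 1.00 in edgeR. Thbs1 had only 34 endothelial UMIs in all, and without doublet removal its difference was 0.84. The Lox difference was 0.58 under the stricter cell filter and 0.68 without doublet removal, and that of Ccn2 was -0.28 without the first anti-CD8 library and -1.32 without the second.

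Ependymal cells, the ciliated lining of the central canal, were 159 and 147 against 295 and 185 cells. None of the 17 members tested was called by edgeR, against 0.00701% of 14266 genes, which is the single gene Ccl12. At an unadjusted p under 0.05 stood 1 member and 330 genes, and DESeq2 called 9 genes, 1 of them a member (Dcn). The other 18 held 3 to 109 UMIs over the 4 libraries and were not tested. Members lay above 0 in 6 cases and below in 11, with a median log2 fold change of -0.03 against 0.00 over all genes.

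Dcn in ependymal cells rested on very few cells. It had 65 and 502 against 1 and 0 UMIs, found in 3 and 4 against 1 and 0 cells. In edgeR its log2 fold change was -9.10 (adjusted p = 0.246), a value that depends on the prior count and is no bound. In the second IgG library 3 cells with at least 10 Dcn UMIs held 501 of its 502 Dcn UMIs, 89 of its 98 Col1a1 UMIs, all 92 of its Col3a1 UMIs and all 39 of its Lum UMIs. Those 3 cells also held 498 UMIs of fibroblast markers (7 of 14 detected) and 1128 UMIs of ependymal markers (12 of 12 detected). In the first IgG library 1 such cell held 62 of 65 Dcn UMIs, with 15 UMIs of fibroblast markers. The part of these cells in the result was not tested, and Dcn was called without the first IgG library (adjusted p = 6.29e-122 in edgeR) and without the second (adjusted p = 7.01e-17). It was not called without the first anti-CD8 library (adjusted p = 0.907 in edgeR), without the second (adjusted p = 0.354) or without doublet removal (adjusted p = 0.577).

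Other collagen genes of ependymal cells were not called either. Col5a2 stood at 47.7 and 54.2 against 59.5 and 66.5 CPM (51.0 ± 4.59 against 63.0 ± 4.95 CPM, SD, n = 2). Both anti-CD8 libraries were higher, and it was not called (log2 fold change 0.30, SE 0.14, adjusted p = 1.00 in edgeR). Col12a1 stood at 45.8 and 41.6 against 39.0 and 49.9 CPM (95% interval of the log2 fold change -0.36 to 0.36), with overlap. Col1a2 stood at 31.9 and 73.6 against 50.6 and 39.2 CPM and overlapped as well. In the second IgG library 1 cell held 49 of the 285 Col1a2 UMIs. The 4 highest cells held 38.25% of them, against 12.6% to 18.6% in the other libraries. Col1a2 had a UMI in 48.5% of ependymal cells against 0.258% of T cells, at median depths of 15758 to 22506 and 6196 to 7320 UMIs by library. Col1a1, the partner chain of Col1a2, had a UMI in 2.42% of ependymal cells.

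The remaining genes of ependymal cells overlapped between groups, apart from Tgfbi, Nid2 and Hspg2. Sparc was 402 and 533 against 561 and 352 CPM. Thbs1 was 68.2 and 45.7 against 71.9 and 50.9 CPM. Lamb2 was 84.7 and 81.1 against 85.8 and 84.0 CPM (95% interval of the log2 fold change -0.26 to 0.32). Lamc1 was 60.2 and 64.3 against 58.4 and 66.2 CPM. Col4a1 was 58.3 and 59.1 against 62.0 and 52.3 CPM. Tgfbi, which encodes a TGF-beta-induced integrin ligand, had 15 and 18 against 18 and 4 UMIs (log2 fold change -0.86, SE 0.54, adjusted p = 1.00 in edgeR). Its log2 fold change was -0.34 without the second anti-CD8 library, -1.98 without the first and -0.24 without doublet removal. In ependymal cells 1 member (Col5a2) had both anti-CD8 libraries higher and 4 (Dcn, Tgfbi, Nid2 and Hspg2) both lower, against 13.4% and 13% of all genes tested.

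**Figure D4:**
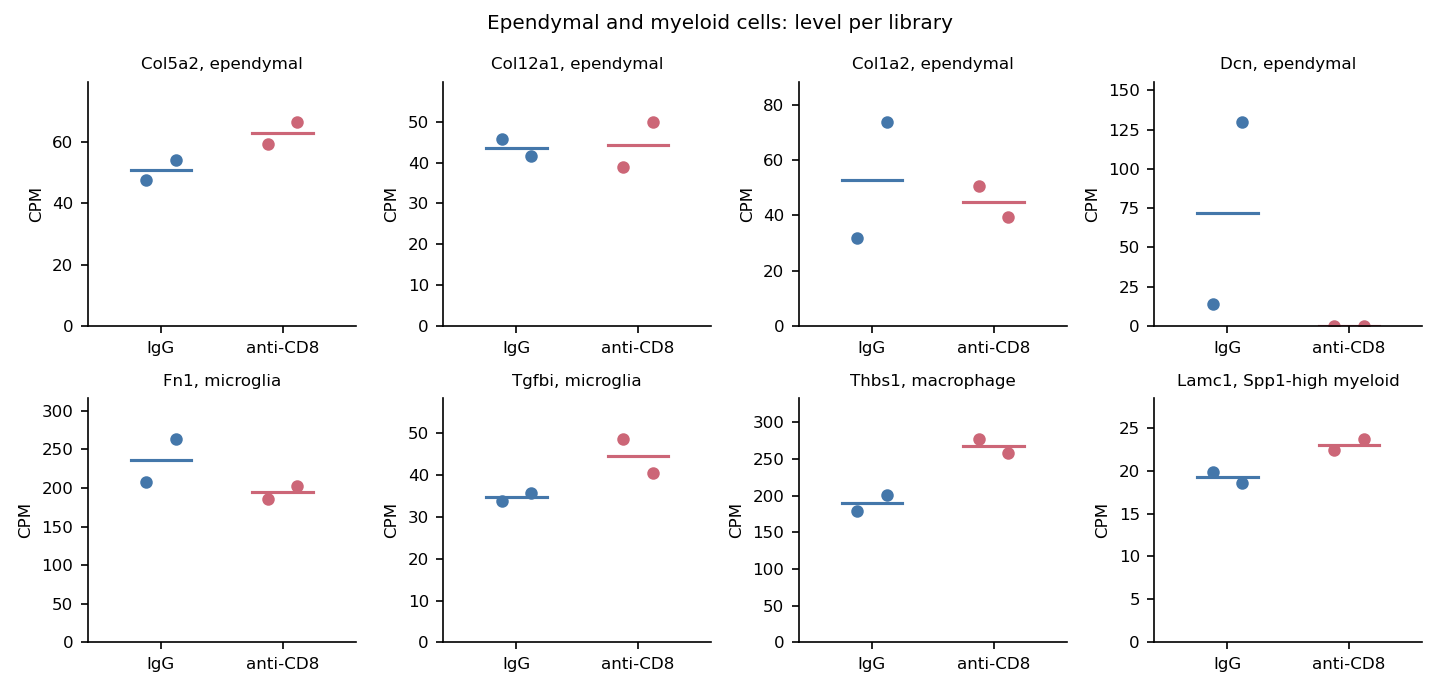
CPM in each library (points) and group means (lines) for 8 genes in ependymal and myeloid classes. Thbs1 in macrophages has both anti-CD8 points above both IgG points, and ependymal Dcn is near 0 in both anti-CD8 libraries.

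Microglia, the resident macrophages of the cord, were 3439 and 2943 against 3698 and 4114 cells. Not every cluster counted here was marked clearly as microglia. Cluster 2 (2481 cells) had a mean log2 fold of 1.22 on the pan-myeloid list and 0.49 on the microglia list. Cluster 10 (1039 cells, at 0.179 of its libraries' median depth) had 1.41 on the pan-myeloid and 1.13 on the Spp1-high list. Tgfbi stood at 60.4 CPM in cluster 2 and 18.8 CPM in cluster 1, a description with no test. None of the 16 members tested was called by edgeR, against 0% of 18180 genes. At an unadjusted p under 0.05 stood 3 members and 1503 genes, and DESeq2 called 79 genes, no member. The other 19 held 3 to 39 UMIs over the 4 libraries and were not tested. Members lay above 0 in 10 cases and below in 6, with a median log2 fold change of 0.13 against 0.00 over all genes.

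Fn1 in microglia stood at 208 and 264 against 186 and 202 CPM (236 ± 39.8 against 194 ± 11.2 CPM, SD, n = 2). Both anti-CD8 libraries were lower, and the difference was not called (log2 fold change -0.33, SE 0.11, adjusted p = 0.574 in edgeR). Its level varied far more between the clusters counted as microglia, from 32.5 CPM in cluster 1 to 647 CPM in cluster 11, a description with no test. Of all marker lists, the Spp1-high list gave cluster 11 its highest score (mean log2 fold 0.95, against 0.92 on the pan-myeloid list). Cluster 3 of the Spp1-high class scored 1.90 on it. Tgfbi stood at 33.8 and 35.8 against 48.7 and 40.4 CPM (34.8 ± 1.37 against 44.6 ± 5.85 CPM, SD, n = 2), with both anti-CD8 libraries higher (log2 fold change 0.30, SE 0.09, adjusted p = 0.569 in edgeR). Without the second IgG library the Fn1 log2 fold change was -0.16, and without the first anti-CD8 library that of Tgfbi was 0.17. With no filter on low counts, Fn1 (adjusted p = 6.54e-05), Tgfbi and Lox were called by edgeR, 3 of 35 members tested. In that setting 1.93% of 30403 genes were called. Lama5, a laminin alpha chain, was scarce at 12 and 8 against 16 and 24 UMIs (log2 fold change 0.93, SE 0.38, adjusted p = 0.594 in edgeR).

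Sparc in microglia was 670.3 and 799.6 against 767 and 679 CPM. Postn was 28.1 and 19.9 against 22.4 and 24.1 CPM. Lox was 14.95 and 9.69 against 10.4 and 9.77 CPM, with the first IgG library highest. That library also held 426 of the interferon-high microglia, against 48 to 101 in the others, and its summed neutrophil markers in microglia were 230.4 CPM against 2.106 to 2.56 CPM, whose part was not tested. Thbs1 was 12.3 and 10.2 against 11.7 and 12.9 CPM. Lamc1 was 10.9 and 10.4 against 12.1 and 11.3 CPM. Lamb2 was 1.696 and 2.011 against 2.373 and 2.012 CPM, with the second library of each group nearly level. Higher in both anti-CD8 libraries were 5 members (Tgfbi, Col4a2, Lama5, Lamb2 and Lamc1) and lower was 1 (Fn1), against 30.8% and 11.5% of all genes tested. These counts rest on CPM before TMM scaling. The TMM factors in microglia were 0.976 and 0.986 against 1.024 and 1.014, so narrow separations, as of Lamb2 and Lamc1, can be lost with them.

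The Spp1-high myeloid class, activated cells marked by the osteopontin gene, were 1271 and 1228 against 1503 and 1596 cells. None of the 12 members tested was called by edgeR, against 0% of 16075 genes. At an unadjusted p under 0.05 stood 1 member and 1308 genes, and DESeq2 called 43 genes, no member. The other 23 held 2 to 32 UMIs over the 4 libraries and were not tested. Members lay above 0 in 8 cases and below in 4, with a median log2 fold change of 0.06 against 0.00 over all genes.

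Lamc1 had the smallest p there, at 19.9 and 18.5 against 22.4 and 23.7 CPM (19.2 ± 0.974 against 23.0 ± 0.954 CPM, SD, n = 2), with both anti-CD8 libraries higher (log2 fold change 0.21, SE 0.07, adjusted p = 0.55 in edgeR). Tgfbi stood at 36.5 and 50.9 against 54.8 and 52.2 CPM, also without overlap before TMM scaling (log2 fold change 0.24, SE 0.13, adjusted p = 0.686 in edgeR). Without the second IgG library it was called (log2 fold change 0.50, adjusted p = 0.0243 in edgeR), and without the first IgG library the log2 fold change was 0.013 (adjusted p = 0.991). Col6a3, a chain of the beaded-filament type VI collagen, had 12 and 2 against 13 and 16 UMIs (log2 fold change 0.88, SE 0.63, adjusted p = 0.762 in edgeR). Its log2 fold change was 2.63 without the first IgG library and 0.13 without the second. Fn1 was 271 and 414 against 397 and 351 CPM. Sparc was 226 and 222 against 229 and 217 CPM (95% interval of the log2 fold change -0.19 to 0.07). Postn, the gene with most of its UMIs in this class, was 43.6 and 46.1 against 49.5 and 45.1 CPM (95% interval of the log2 fold change -0.13 to 0.17). Thbs1 was 19.9 and 20.6 against 15.3 and 22.8 CPM. Lox was 4.98 and 2.67 against 3.30 and 3.24 CPM. Lamb2 was 2.17 and 2.25 against 2.31 and 2.48 CPM, with both anti-CD8 libraries slightly higher. In all, 4 members (Col6a3, Tgfbi, Lamb2 and Lamc1) were higher in both anti-CD8 libraries and none was lower in both, against 30.9% and 10.9% of all genes tested. These counts rest on CPM before TMM scaling. The TMM factors in this class were 0.984 and 0.978 against 1.012 and 1.027, so narrow separations, as of Tgfbi and Lamb2, can be lost with them.

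Macrophages were 274 and 410 against 435 and 532 cells. None of the 8 members tested was called by edgeR, against 0% of 12377 genes. At an unadjusted p under 0.05 stood 2 members and 641 genes, and DESeq2 called 2 genes, no member. The other 27 held 0 to 25 UMIs over the 4 libraries and were not tested. Each of the 8 tested had a log2 fold change above 0, with a median of 0.40 against 0.00 over all genes, of which 6275 of 12377 were above 0.

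Thbs1 had the smallest p among the macrophage members. It stood at 179 and 201 against 278 and 258 CPM (190.2 ± 15.3 against 268 ± 13.5 CPM, SD, n = 2), with both anti-CD8 libraries above both IgG libraries. The difference was not called (log2 fold change 0.45, SE 0.09, adjusted p = 0.931 in edgeR). Its log2 fold change ran from 0.38 to 0.51 over the alternatives. With no filter on low counts Thbs1 was called (adjusted p = 0.00362 in edgeR), where 0.48% of 23555 genes were called. Lamc1 stood at 27.2 and 19.9 against 33.3 and 30.3 CPM (log2 fold change 0.40, SE 0.16, adjusted p = 0.931 in edgeR). Its log2 fold change was 0.15 without the second IgG library and 0.64 without the first. With finer clusters it was -0.086, but the class then held only 55 and 87 against 116 and 138 cells. Tgfbi stood at 182 and 245 against 277 and 256 CPM (log2 fold change 0.27, SE 0.12, adjusted p = 0.931 in edgeR). The anti-CD8 libraries were the higher ones for both, and the Tgfbi log2 fold change was 0.088 without the first IgG library and 0.47 without the second.

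Fn1 in macrophages was 70.4 and 112 against 148 and 99.1 CPM (95% interval of the log2 fold change -0.10 to 0.85). Sparc was 15.9 and 30.0 against 42.2 and 28.4 CPM (95% interval of the log2 fold change -0.05 to 1.11). The groups overlapped for both, and the first anti-CD8 library was highest. Postn was 1.62 and 2.14 against 5.20 and 1.92 CPM. Col4a1 was 1.78 and 1.31 against 1.64 and 2.42 CPM. Dcn was 1.62 and 0.834 against 0.411 and 2.12 CPM, a few UMIs in each library. Higher in both anti-CD8 libraries were 3 members (Tgfbi, Thbs1 and Lamc1) and none was lower in both, against 24.6% and 11.8% of all genes tested. These counts also rest on CPM before TMM scaling, whose factors in macrophages were 0.970 and 0.996 against 1.024 and 1.010.

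**Figure D5:**
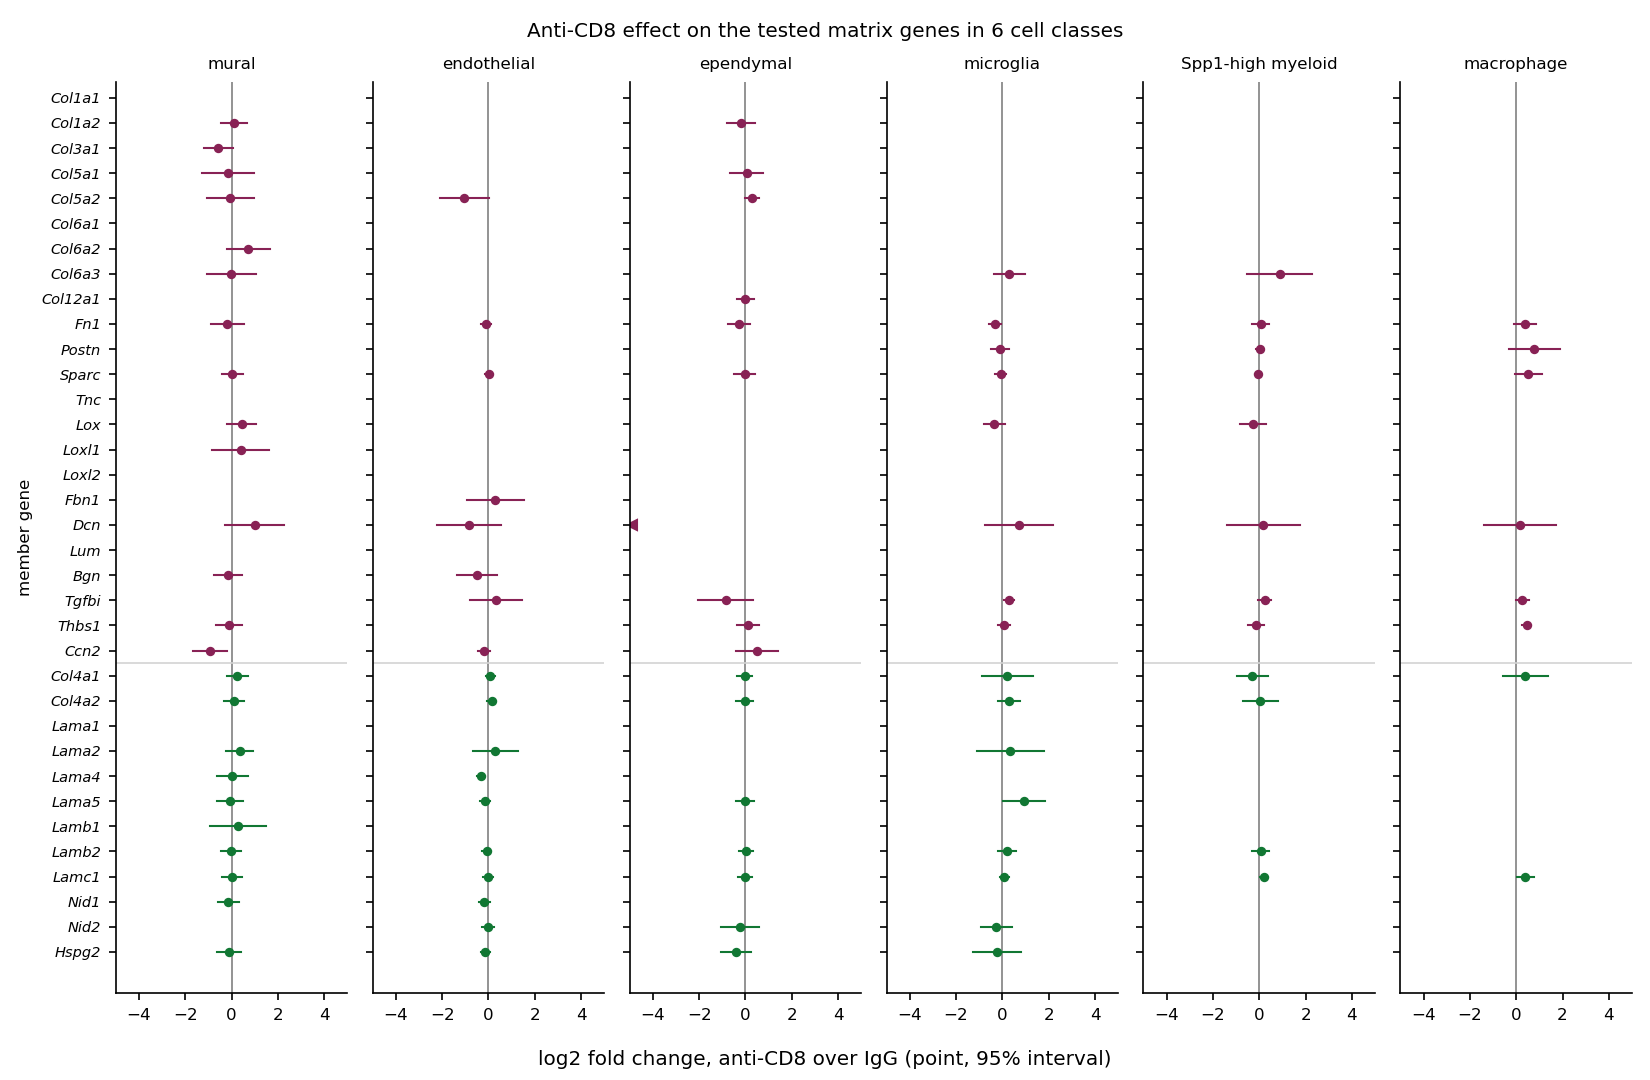
Log2 fold change of anti-CD8 over IgG with 95% intervals for each member tested, by class, with fibrillar genes in maroon and basement membrane genes in green. Most intervals include 0, and ependymal Dcn lies off the scale.

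Summed over all cells, the 23 fibrillar and interstitial genes took 928 and 1095 against 1085 and 969 CPM and the 12 basement membrane genes 129 and 143 against 177 and 135 CPM. The groups overlapped for both sums. In such sums, fewer cells of a type and less RNA per cell cannot be told apart.

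Genes around the matrix pathway were read from 4 lists, of 13 other basement membrane genes, 18 collagen biosynthesis enzymes and chaperones, 22 TGF-beta pathway genes and 24 matrix receptors. None was called by edgeR in any of the 6 classes. Smad7, the inhibitory Smad, had a log2 fold change in edgeR of -0.31 (SE 0.09, adjusted p = 1.00) in endothelial cells. Tgfb2, a TGF-beta ligand, stood on the same scale at 0.67 (SE 0.17, adjusted p = 1.00) in ependymal cells. Of the 15 to 19 TGF-beta pathway genes tested in each class, 1 to 3 stood at an unadjusted p under 0.05. Collagen biosynthesis genes had 10 to 16 tested, with at most 1 at that level, other basement membrane genes 2 to 9 with at most 2, and matrix receptors 12 to 20 with at most 3.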

How the data were processed

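The authors deposited UMI counts per gene and cell barcode for 4 libraries, made with Cell Ranger 7.1.0 on GRCm39 per the submitters' processing notes. Cells needed 300 detected genes and a mitochondrial share of 20% or less, and predicted doublets were removed with Scrublet in scanpy 1.11.5 (0.8% per 1000 cells). Cells were clustered by the Leiden method (leidenalg 0.10.2, resolution 1), and clusters were named from marker lists with thresholds set after seeing the data. For each class, the counts of a library's cells were added up and anti-CD8 was tested against IgG with edgeR 4.0.16 (R 4.3.3), TMM scaling, its default filter on low counts and Benjamini-Hochberg adjustment over all genes tested at 0.05. DESeq2 1.42.0 was an alternative. Alternatives also covered the count filter, a replicate block, doublets, cell filters, clustering and leaving out each library. On simulated data, edgeR recovered 25% of genes changed by a log2 fold of 1 in mural cells and 70% to 77% in the other classes, and 8.79% to 13.2% of its calls were false, above the 5% aimed at.

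Named are the 8 members with the highest mean CPM per class, any called member and the 3 with the smallest p. The members and lists were chosen with earlier results of these data known. No per-sample column was left unmapped. A listed gene is not reported here. For aligner settings and strand handling, nothing is given in the sources used here. Counting intervals were not computed, and precision is limited by 2 libraries per group.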

Additional observations from a re-analysis of the deposited data

Results flagged for a closer look

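For 3 genes the groups separated in opposite directions in different classes, read on CPM before TMM scaling. None of these differences was itself tested. Col5a2 had both anti-CD8 libraries higher in ependymal cells and lower in endothelial cells, with log2 fold changes of 0.30 and -1.05, a difference of 1.34. Endothelial Col5a2 had 6 to 22 UMIs per library, and its log2 fold change was -0.45 under the stricter cell filter. Lama5 was higher in microglia (0.93), while both anti-CD8 libraries were lower in endothelial cells (-0.14), a difference of 1.07. Microglial Lama5 had 8 to 24 UMIs per library, and its log2 fold change was 0.57 with the members among the variable genes. Tgfbi was lower in ependymal cells (-0.86), where it had 4 to 18 UMIs per library, and higher in 3 myeloid classes. Its log2 fold change differed from the ependymal one by 1.16 in microglia, 1.09 in the Spp1-high class and 1.12 in macrophages. Ependymal Tgfbi was -0.24 without doublet removal, -0.34 without the second anti-CD8 library and -1.98 without the first. Without the first IgG library, Tgfbi was 0.013 in the Spp1-high class and 0.088 in macrophages.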

How the results depend on the processing

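No member was called in mural or endothelial cells, or in the test of their difference, under any alternative run. Below, genes called are given in the order mural, endothelial, ependymal, microglia, Spp1-high and macrophage, against 0, 0, 1, 0, 0 and 0 as reported. DESeq2 called 1, 5, 9, 79, 43 and 2 genes, with Dcn in ependymal cells as its 1 member. In ependymal cells that was 1 of 17 members tested, against 0.0631% of 14266 genes. With no filter on low counts edgeR called 57, 128, 135, 586, 12 and 113 genes. These were 0.308%, 0.491%, 0.506%, 1.93%, 0.0426% and 0.48% of the genes tested. The members among those genes were 4 of 35 tested in ependymal cells (Col1a1, Col3a1, Dcn and Lum) and 3 of 35 in microglia (Fn1, Lox and Tgfbi). In macrophages they were 2 of 32 (Thbs1 and Sparc). Without doublet removal the counts were 1 (mural), 0 (ependymal), 2 (Spp1-high) and 1 (macrophage). Leiden resolution 2 gave 1 gene in the Spp1-high class and 3 in macrophages, and a stricter cell filter 3 in microglia. Alternatives chosen after seeing the data gave 3 genes in the pericyte-led cluster alone, 1 with the mixed cluster counted as mural and 2 in microglia without the interferon-high cluster.

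Leaving out 1 library at a time gave 0 to 52, 11 to 76, 0 to 172, 0 to 146, 40 to 94 and 0 to 34 genes. Members called ranged from 0 to 6 in ependymal cells (6 without the first IgG library), 0 to 1 in microglia (Lox, without the second IgG library) and 0 to 1 in the Spp1-high class (Tgfbi, without the second IgG library). The lone library of a group was then assumed to vary like the others.

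With the replicate number as a block, genes called were 0, 9, 56, 1, 107 and 3, with 1 member, Dcn in ependymal cells. There 17 members were tested, and 0.393% of 14266 genes were called. The labels do not say that the numbers pair the libraries, and the correlation of same-numbered deviations was -0.028 to 0.033. The interaction test already held the library as a block.

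Fold changes were recomputed for the 3 members with the smallest p in each class and in the interaction, not for the other genes named. Direction changed in 3 cases. They were mural Dcn (-0.51 with the mixed cluster counted as mural) and macrophage Lamc1 (-0.086 at Leiden resolution 2, where the class held far fewer cells). The third was the mural minus endothelial difference of Thbs1 (0.84 without doublet removal). The cause was not tested. Apart from these cases, low counts limited the precision for scarce collagens, and mural cells had the lowest recovery on simulated data.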

Other observations

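Dcn was also found outside fibroblast-like cells, in 70 neurons led by Pkd2l1, a channel gene of cells that contact the cerebrospinal fluid. Its level there was 2727 and 2255 against 2127 and 1779.6 CPM, and 41.4% of these cells had a UMI of Dcn. Over all neurons, the 4 highest cells held 68.6% to 88.7% of a library's neuronal Dcn UMIs. Lamc1 stood at 218 and 159.6 against 200.1 and 173 CPM in the T cell cluster led by Trdc, with a UMI in 52.1% of its cells against 19.0% of the other T cells. In 16 neutrophils, Thbs1 had 26 and 143 against 10 and 76 UMIs of the 29 and 147 against 25 and 84 UMIs of the fibrillar and interstitial genes. These values are descriptions with no test.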
